A study of Homo sapiens with 4 samples.

Results

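Splicing factors and RNA helicases were compared between A549 cultures overexpressing let-7a-3 and parental A549 cultures. The members were the array clones with exactly 1 gene symbol in the platform annotation whose symbol belongs to the SRSF, HNRNP, PTBP, SNRP, LSM, SF3A, SF3B, U2AF, PRPF, RBM, DDX or DHX series, or is SFPQ or NONO. They comprised 226 of 26629 clones and 139 of 12483 genes, 138 of them protein-coding and 1, RBM33-DT, a long noncoding RNA that matches by name. No filter on low values was applied, so all 226 clones entered every fit. A549 is a human lung adenocarcinoma line, and both kinds of culture were grown in the same serum-supplemented medium. Each of the 4 two-colour cDNA arrays set 1 let-7a-3 culture against 1 parental culture, with the dyes exchanged so that arrays 1 and 3 had one orientation and arrays 2 and 4 the other. The control was the parental line, so transfection and selection cannot be told apart from let-7a-3. The design text speaks of 4 culture replicates on each side, without saying if the transfected ones derive from a single clone or from separate transfections, so the p-values measure the spread between these cultures only. In bulk cultures, fewer cells of a kind and less RNA per cell cannot be told apart.

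Pre-mRNA splicing removes introns in a large ribonucleoprotein machine, the spliceosome. Sm and LSm proteins form rings around the small nuclear RNAs, U2AF recognises the end of the intron, the SF3A and SF3B complexes belong to the U2 particle, and PRPF8 lies at the catalytic centre. SR proteins mostly promote exon inclusion, hnRNPs often oppose it, and RBM proteins hold many tissue-specific regulators. DEAD-box (DDX) and DEAH-box (DHX) proteins use ATP to remodel RNA and its protein complexes, in splicing and also in translation, ribosome assembly and RNA decay.

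The microRNA that defines the comparison is shown because its seed, bases 2 to 8, is the part that pairs with target RNAs. Both RNAs are from RefSeq (GRCh38.p14, plus strand). The hairpin of let-7a-3 lies at chr22:46112749-46112822, with the mature 5′ arm in capitals. The mature RNA lies at chr22:46112752-46112773, with the seed in capitals.
let-7a-3 hairpin: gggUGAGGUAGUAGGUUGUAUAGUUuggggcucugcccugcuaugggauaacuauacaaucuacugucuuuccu
let-7a-5p: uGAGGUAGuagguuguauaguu

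The deposited values are log ratios whose base, numerator channel and turning for the dye swap are not stated. A positive value therefore cannot be assigned to either culture, no fold is given, and every sign below would change if the ratios run the other way. Each clone was described by a shared component, the mean over the 4 arrays, and an alternating component, which changes sign with the dye orientation and is given with the sign of arrays 1 and 3. Which of them carries the let-7a-3 effect is not settled by the labels, and both are reported. The array medians lay between -0.0022 and 0.017 and the standard deviations between 0.173 and 0.193. Log ratios hold no levels, so the presence of A549 or other cell markers could not be checked. Of 16 measured markers of 22 listed, keratin 8 (KRT8, 0.39) was positive and the lymphocyte gene NKG7 (-0.26) negative past the threshold in the shared component. There 3.04% of all genes passed. The other epithelial markers EPCAM (0.095), SFTPB (0.017) and CDH1 (-0.048) and the blood markers PTPRC (0.026) and CD14 (0.024) did not pass there. None of 5 fibroblast and 4 endothelial markers passed there, although COL1A2 and TEK had an unadjusted p under 0.05 in limma and TEK passed in the alternating component (-0.20). What part such markers have in the results was not tested.

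RBM24 stood apart from all other members. It encodes an RNA-binding protein known as a splicing regulator of heart and skeletal muscle, and both of its clones had high positive log ratios on every array. The clone IMAGp998F204221 read 0.85, 0.52, 0.79 and 0.59 on arrays 1 to 4, with a mean of 0.69 ± 0.16 (SD, n = 4; limma adjusted p = 9.17e-05). The clone RZPDp1096D085D read 0.58, 0.75, 0.92 and 0.69, with a mean of 0.74 ± 0.14 (limma adjusted p = 0.00029). On arrays 1, 3 and 4 both clones lay above every other member clone, and on array 2 an LSM10 clone (0.53) lay between them. The alternating component was 0.13 and 0.015 and did not pass in either clone. IMAGp998F204221 read higher on arrays 1 and 3 than on arrays 2 and 4. Averaged over its clones, RBM24 was at 0.71 ± 0.10 (limma adjusted p = 9.71e-05), the place 23 from the top among 12483 genes. The next RBM gene on this side, the cold-inducible RBM3, was at 0.11. Both clones and the gene average remained past the threshold under every alternative run, including each array left out.

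PRPF8, DDX41 and LSM4 had smaller positive values. PRPF8, the large scaffold protein of the spliceosome's centre, read 0.23, 0.35, 0.23 and 0.27 on its 1 clone, with a mean of 0.27 ± 0.055 (SD, n = 4; limma adjusted p = 0.0264). Its 4 arrays lay close together and the dye orientations differed little. DDX41, a DEAD-box helicase mutated in myeloid cancers, read 0.13, 0.36, 0.099 and 0.38, with a mean of 0.24 ± 0.15 (limma adjusted p = 0.0402). Here arrays 2 and 4 were clearly higher than arrays 1 and 3, although the alternating component did not pass (-0.13, limma adjusted p = 0.151). LSM4, a subunit of the LSm ring that binds U6 RNA and, in the cytoplasm, of the ring that acts in mRNA decay, was measured by 2 clones. The first read 0.17, 0.25, 0.26 and 0.27, with a mean of 0.24 ± 0.043 (limma adjusted p = 0.0474). The second read 0.018, 0.025, 0.31 and 0.19, with a mean of 0.14 ± 0.14 (limma adjusted p = 0.418), and was near 0 on arrays 1 and 2. The average of both clones did not pass (0.19 ± 0.086, limma adjusted p = 0.0912).

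RBM14 was the only member clone past the threshold with a negative shared component. It encodes a coactivator and paraspeckle protein, and its clone read -0.46, -0.19, -0.42 and -0.033, with a mean of -0.28 ± 0.20 (SD, n = 4; limma adjusted p = 0.0300). Arrays 1 and 3 were far lower than arrays 2 and 4, and array 4 was near 0. The related RBM4, on 3 clones, averaged -0.024 and RBM4B, on 1 clone, -0.064, neither past the threshold.

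At the clone level these smaller calls depended on single arrays. Over the whole table, 1.91%, 1.02%, 3.32% and 1.07% of clones passed without arrays 1, 2, 3 and 4, against 2.07% with all 4. At the probe level PRPF8 lost its call without array 2 (adjusted p = 0.245 in limma) and without array 4 (0.136). RBM14 lost it without array 1 (limma adjusted p = 0.0673), array 2 (0.298) and array 4 (0.0858), and DDX41 without the same arrays (0.0840, 0.267 and 0.294). LSM4 lost it without any 1 of the 4 (limma adjusted p between 0.0566 and 0.319) with each array centred on its median (0.0589) and with each array scaled to its median absolute deviation (0.0550). Without the dye term the RBM24 pair were the 2 member clones past the threshold, and the clones of PRPF8, RBM14, DDX41 and LSM4 were at a limma adjusted p of 0.112, 0.299, 0.307 and 0.180, where 0.867% of all clones passed. Their log ratios stayed between 0.21 and 0.29 in size except for RBM14 without array 4, at -0.32. In the gene-level fit PRPF8, RBM14 and DDX41 were at a limma adjusted p of 0.0120, 0.0155 and 0.0172. As genes they lost the call in 2, 2 and 3 of the alternative runs and kept it in 10, 10 and 9.

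**Figure D1:**
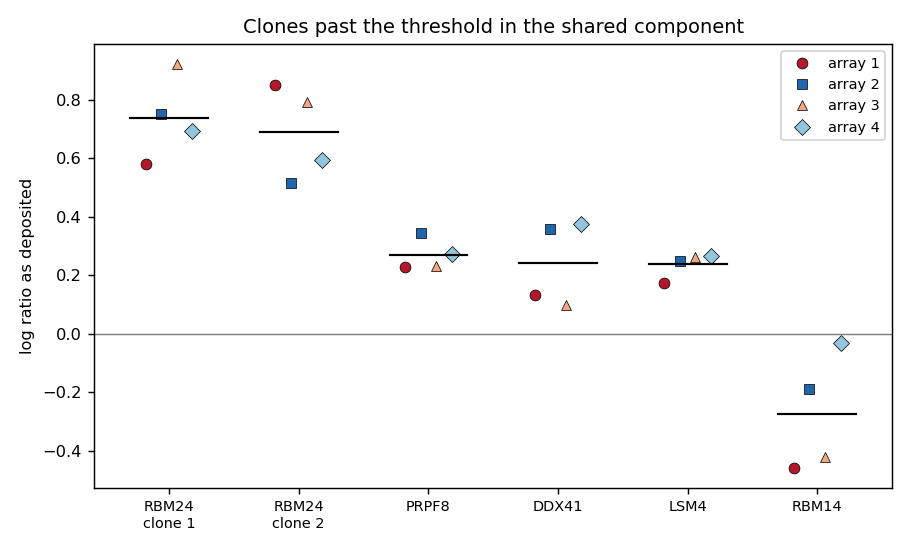
Log ratio as deposited (y axis, no stated base) of the 6 member clones past an adjusted p of 0.05 in the shared component, with 1 symbol per array and a bar at the mean of the 4 arrays. Clone 1 of RBM24 is RZPDp1096D085D and clone 2 is IMAGp998F204221, and their 8 readings lie between 0.52 and 0.92, above all readings of the other 4 clones.

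In all, 6 of 226 member clones (2.65%) passed in the shared component, 5 positive and 1 negative, where 2.07% of all clones did (1.12% positive and 0.946% negative). With clones averaged per gene, 4 of 139 (2.88%) passed: RBM24, PRPF8 and DDX41 positive and RBM14 negative. The share among all genes was 3.04% (1.63% positive and 1.41% negative), so the member genes were called about as often as genes on the array at large. Before adjustment, limma gave a p under 0.05 to 35 of 226 member clones (15.5%), against 12.5% of all clones, and to 23 of 139 member genes (16.5%), against 14.6% of all genes. The median of the member genes was 0.013, with 78 positive and 61 negative values, and that of all genes was 0.007. In 112 of 139 genes the shared component was under 0.1 in size, and in 4 it was 0.2 or more. Without RBM33-DT the counts of called genes were the same.

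PRPF proteins include parts of the spliceosome's U4, U5 and U6 particles. They had the highest median of the subfamilies with more than 1 gene, 0.089 over 7 genes, and 6 genes were positive. PRPF8 was the gene past the threshold there. PRPF39 (0.13, limma adjusted p = 0.202) and PRPF6, a bridge within the tri-snRNP (0.13 ± 0.025, limma adjusted p = 0.175), were next. PRPF6 read 0.12, 0.13, 0.15 and 0.093, a narrow range for a value that did not pass.

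Among 21 Sm, LSm and snRNP proteins the median was 0.043 and 15 values were positive, with none past the threshold at the gene level and the first LSM4 clone past it at the clone level. The genes ran between LSM12 (-0.12) and LSM4 (0.19). LSM14A, a P-body protein with an LSm domain, was second highest at 0.11 (limma adjusted p = 0.256). The 9 U2 factors spanned the narrowest range of the larger subfamilies, from -0.084 (SF3A2) to 0.057 (SF3B6), and none passed. U2AF1, the subunit that reads the AG at the intron end, averaged -0.013 ± 0.026 over 3 clones (SD, n = 4 arrays; limma adjusted p = 0.912). SF3B1 and NONO were not analysed here.

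SR proteins had the lowest median, -0.030 over 11 genes, with 7 negative values and none past the threshold. SRSF2, which binds exonic enhancers, read -0.14, -0.062, -0.35 and -0.18 (mean -0.18 ± 0.12, SD, n = 4; limma adjusted p = 0.113). All 4 arrays were negative, with array 3 the lowest. SRSF3 averaged -0.11 over 3 clones and SRSF1, the founding member of the family, -0.096 ± 0.067 over 2 (limma adjusted p = 0.373).

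The 21 hnRNPs had a median of 0.006 and none passed. HNRNPCL1, a gene closely related to HNRNPC, was lowest at -0.18 ± 0.17 (SD, n = 4; limma adjusted p = 0.235), and HNRNPA0 highest at 0.082. PTBP1, the polypyrimidine tract binding protein that represses neuronal exons, read 0.043, -0.059, -0.17 and -0.30 (mean -0.12, limma adjusted p = 0.376). Its paralogs PTBP2 (0.038) and PTBP3 (0.048) had means near 0. PTBP2 read -0.053, 0.17, -0.17 and 0.21, and PTBP3 read -0.079, -0.043, 0.33 and -0.018. HNRNPA1 read 0.048, -0.28, 0.40 and -0.18, with a mean of -0.003 (limma adjusted p = 0.988), so large readings of opposite sign cancelled. SFPQ, a paraspeckle and splicing protein, read 0.33, -0.21, 0.31 and 0.004 (mean 0.11, limma adjusted p = 0.369), high on arrays 1 and 3.

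In the 29 RBM genes the median was 0.004. Apart from RBM24 and RBM14 their values lay between -0.10 (RBM48) and 0.11 (RBM3).

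The 28 DDX genes had a median of -0.006, with 14 values on either side of 0. DDX23, the helicase of the U5 particle, averaged 0.19 ± 0.054 over 2 clones and was positive on all 4 arrays (SD, n = 4; limma adjusted p = 0.0630), without passing. DDX3X, a translation-linked helicase, was at 0.12 ± 0.084 (limma adjusted p = 0.204). DDX5, an RNA helicase and transcriptional coregulator, was at -0.059 ± 0.061 (limma adjusted p = 0.588). At the low end stood DDX31 (-0.18, limma adjusted p = 0.0669) and DDX10 (-0.17), both nucleolar helicases. DDX31 read 0.045, -0.44, 0.12 and -0.42, so its sign changed with the dye orientation, while DDX10 was negative on every array.

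The 12 DHX genes had a median of -0.022 and none passed. DHX38, the human Prp16 that acts between the 2 steps of splicing, was at -0.086 ± 0.21 (SD, n = 4; limma adjusted p = 0.454). DHX9, RNA helicase A, was at -0.10 ± 0.13 (limma adjusted p = 0.467). Centring each array on its median moved the median of all genes by under 0.01 and turned the hnRNP and RBM medians to values just below 0, while the other subfamilies kept their sign.

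**Figure D2:**
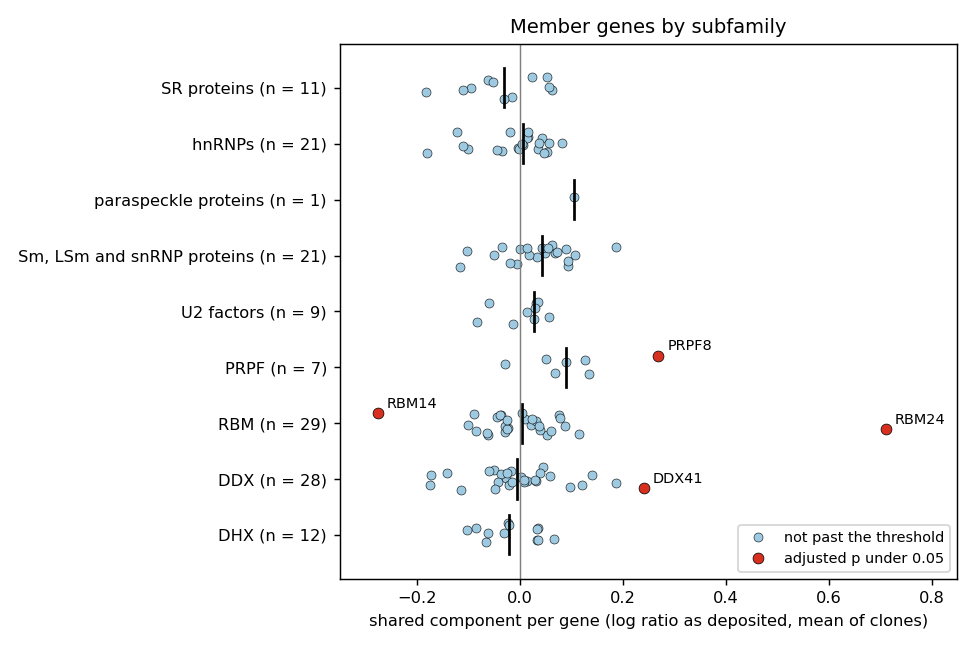
Shared component of each of the 139 member genes (x axis, log ratio as deposited, mean of the gene's clones) by subfamily, with a vertical bar at the subfamily median and red points for an adjusted p under 0.05. Most points lie within 0.1 of 0, RBM24 stands alone at 0.71, and the PRPF median is at 0.089.

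Other genes of the splicing pathway were described from a list of 74 outside the symbol rule, 51 of them measured. In the shared component 1 was positive and 2 negative past the threshold, where 3.04% of all genes passed, and their median was -0.007. EIF4A3, the DEAD-box core of the exon junction complex, read -0.41, -0.22, -0.34 and -0.12 (mean -0.27 ± 0.13, SD, n = 4; limma adjusted p = 0.0141). CLK2, a kinase that phosphorylates SR proteins, read 0.26, 0.20, 0.32 and 0.21 (mean 0.24 ± 0.056, limma adjusted p = 0.0172). ILF2, a nuclear RNA-associated protein, read -0.30, -0.19, -0.14 and -0.21 (mean -0.21 ± 0.068, limma adjusted p = 0.0478). All 3 had 1 sign on every array. In the alternating component GEMIN4 (-0.20), of the complex that loads Sm rings, and TIAL1 (-0.22), a U-rich RNA binder, passed, where 3.29% of all genes did.

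More member clones followed the dye orientation than kept 1 sign, and the same held over all clones of the array. The sign was the same on all 4 arrays in 31 of 226 clones (13.7%), against 14.1% of all clones, and it changed with the orientation in 73 (32.3%), against 28.8% of all clones. In the alternating component 16 of 226 member clones (7.08%) passed, 9 positive and 7 negative, where 4.28% of all clones did (2.81% positive and 1.48% negative). At the gene level 6 of 139 (4.32%) passed, 3 in each direction, against 3.29% of all genes (1.9% positive and 1.39% negative). Before adjustment, limma gave a p under 0.05 to 71 member clones (31.4%), against 25.2% of all clones, and to 42 member genes (30.2%), against 25.6% of all genes. Leaving out array 2 gave 1 member clone, where 0.424% of all clones passed, and 0 member genes (23 at an unadjusted p under 0.05 in limma). Leaving out array 4 gave 2 member clones, where 0.518% of all clones passed, and 1 member gene, so calls were fewer over the whole table too.

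RBM22, a zinc finger protein at the catalytic centre, had the largest alternating value among member clones. Its clone IMAGp998H204686 read 0.23, -0.48, 0.38 and -0.56 (alternating component 0.41, limma adjusted p = 0.0108), positive on arrays 1 and 3 and strongly negative on arrays 2 and 4. RBM18 had 1 of 3 clones with the same pattern, at 0.16, -0.52, 0.33 and -0.48 (0.37, limma adjusted p = 0.0141), while its other clones were at -0.054 and -0.034. Also positive were clones of SF3A2 (0.27), a zinc finger subunit of the U2 particle, DDX31 (0.26), the tissue-restricted RBM11 (0.28) and RBM46 (0.26), and DHX15 (0.23), the helicase that takes spliceosomes apart.

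On the negative side LSM10, a U7 snRNP subunit for histone mRNA processing, read -0.23, 0.53, -0.25 and 0.22 (alternating component -0.31, limma adjusted p = 0.0322). A HNRNPH1 clone, of a G-tract binding hnRNP, read -0.21, 0.25, -0.35 and 0.29 (-0.27, limma adjusted p = 0.0296). Both were low on arrays 1 and 3. Clones of DHX40 (-0.31), DDX46 (-0.23), DDX50 (-0.22) and LSM7 (-0.21) passed as well. At the gene level DDX31, DHX15 and RBM46 were positive and LSM10, LSM7 and SF3A1 negative. Each of these 6 genes was measured by 1 clone. SF3A1 passed only in the gene-level fit (limma adjusted p = 0.0460), and the same readings did not pass at the clone level. The clones named for both components did not overlap, and the 6 clones past the shared threshold had alternating components between -0.16 and 0.13.

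By subfamily, the hnRNP median of the alternating component was -0.084, with 13 of 21 genes negative, against -0.008 over all genes. The array medians of the hnRNPs were -0.079 and -0.068 on arrays 1 and 3, and 0.030 and 0.026 on arrays 2 and 4. SR proteins (-0.052) and Sm, LSm and snRNP proteins (-0.046) lay on the same side. So did PRPF (-0.029), DHX (-0.028), DDX (-0.020) and RBM genes (-0.012), and all members together were at -0.026. U2 factors were at 0.003 and SFPQ, alone in its group, at 0.21. Negative values made up 61.9% of hnRNPs, against 64.3% of DDX genes, 63.6% of SR proteins and 71.4% of Sm, LSm and snRNP proteins. Over all genes the share was 53.8%. No hnRNP or SR protein gene passed when its clones were averaged.

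**Figure D3:**
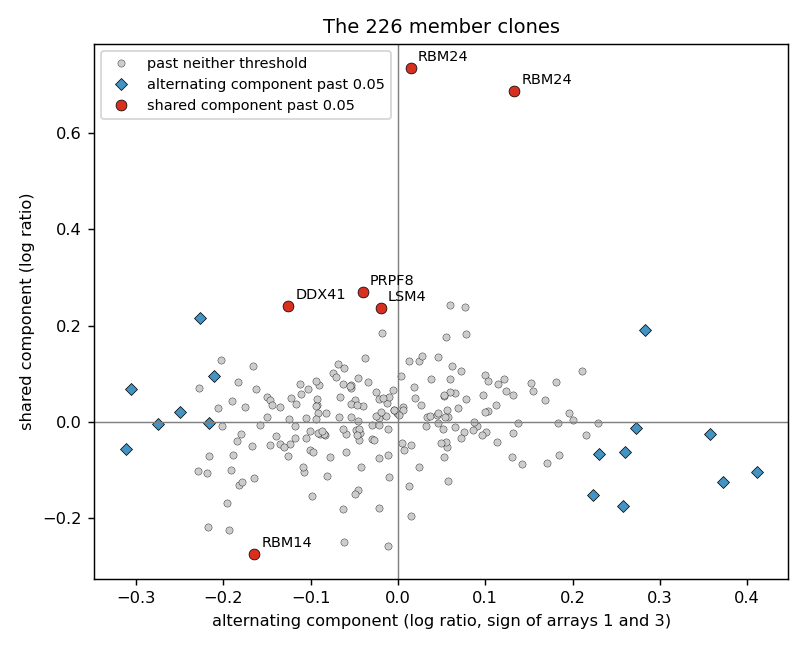
The 226 member clones by their alternating component (x axis, log ratio with the sign of arrays 1 and 3) and their shared component (y axis, log ratio). Red points passed in the shared component and blue diamonds in the alternating one, and the 6 red points lie between -0.16 and 0.13 on the x axis.

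Clones of the same gene were then compared, since 55 member genes were measured by 2 or more clones: 34 by 2, 16 by 3, and 5 by 4 to 6. All clones of a gene had 1 sign of the shared component in 27 of the 55, and in 2129 of all 5075 genes with 2 or more clones (49.1% and 42.0%). For the alternating component the numbers were 16 of 55 (29.1%) and 1983 of 5075 (39.1%). Among genes with exactly 2 clones the shares were 67.6% of 34 members and 54.8% of 3108 genes in the shared component, and 38.2% and 52.2% in the alternating one.

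A clone was tested against the mean of the other clones of its gene. In the shared component none of 142 member clones differed in limma, where 1.96% of all clones did (0.973% positive and 0.988% negative), and 18 (12.7%) had an unadjusted p under 0.05, against 12.7% of all. Without array 3 the count was 9 and without array 2 it was 2, with no share over all clone differences computed for these runs. RBM11, with clones at 0.19 and -0.12, came nearest (difference 0.31, limma adjusted p = 0.0822). The clones of RBM33-DT, at 0.089 and -0.26, were farthest apart (difference 0.35, limma adjusted p = 0.101). In the alternating component 21 of 142 member clones (14.8%) differed, 12 positive and 9 negative, where 6.86% of all clones did (3.66% positive and 3.2% negative). Before adjustment, limma gave a p under 0.05 to 53 (37.3%), against 25.4% of all clones. In a gene with 2 clones both give the same difference with opposite signs, and both are counted. They belonged to 12 of 55 genes (21.8%), against 11.4% of all genes with 2 or more clones.

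The gene with the clearest disagreement among many clones was SRSF11, an SR-like protein that contacts U2AF, which had 6. The clone IMAGp998I094680 read 0.20, -0.38, 0.46 and -0.38 (alternating component 0.36, limma adjusted p = 0.0201). IMAGp998C133511 read 0.045, -0.41, 0.098 and -0.34 (0.22, limma adjusted p = 0.0424). IMAGp998A20412 read -0.33, 0.20, -0.13 and 0.34 (-0.25, limma adjusted p = 0.0429). The first pair of these clones read higher on arrays 1 and 3 than on the other arrays, and the last read lower there. The other 3 clones were at -0.22, -0.15 and 0.003, and none passed. Against the mean of the others, all 3 called clones differed (limma adjusted p = 0.00782, 0.0346 and 0.0278). Averaged over 6 clones, SRSF11 was at -0.005 in the alternating and -0.014 in the shared component, so the gene mean showed none of this.

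HNRNPU, a nuclear scaffold protein and the other gene with 6 clones, behaved otherwise. Its shared components lay between -0.024 and 0.18 and its alternating components between -0.13 and 0.13, no clone passed, and the gene mean was 0.057 ± 0.035 (SD, n = 4; limma adjusted p = 0.579). No HNRNPU clone differed from the others.

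**Figure D4:**
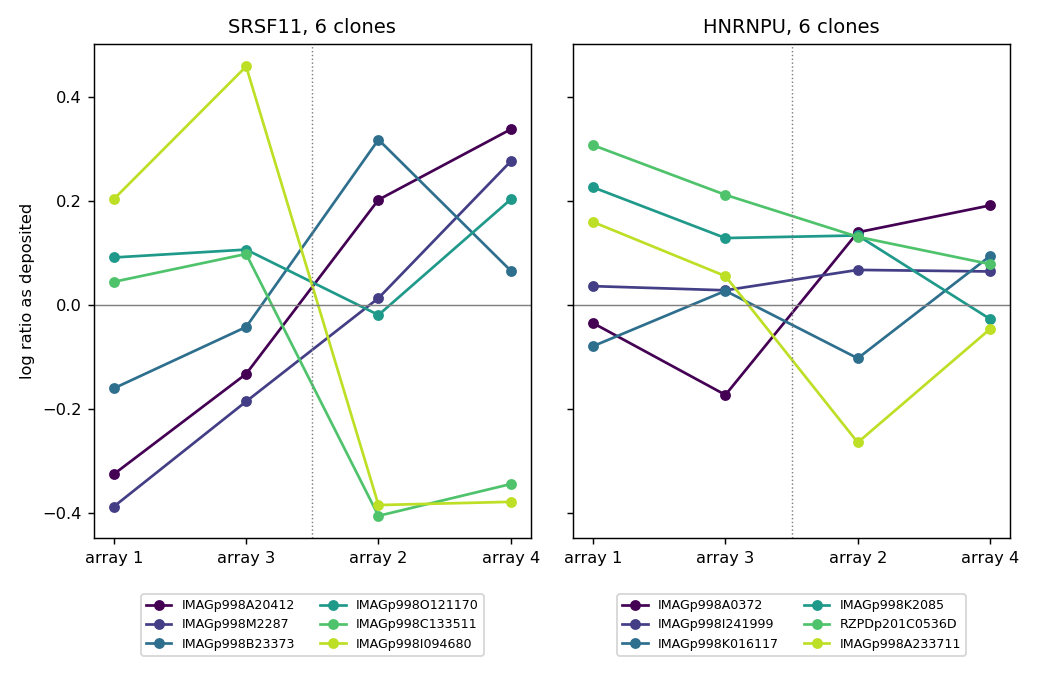
Log ratio as deposited (y axis) of the 6 clones of SRSF11 and the 6 clones of HNRNPU on each array, with arrays 1 and 3 left of the dotted line and arrays 2 and 4, of the other dye orientation, right of it. Lines join the readings of 1 clone and stand for no order of arrays. The SRSF11 clones cross over between orientations, with readings between -0.41 and 0.46, and the HNRNPU clones stay between -0.26 and 0.31.

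Among genes with 2 clones, RBM22 differed most in the alternating component. Its second clone read -0.31, -0.017, 0.004 and 0.026, and the clones differed by 0.49 (limma adjusted p = 0.00513). RBM11 clones differed by 0.46, RBM47 by 0.38, SF3A2 by 0.37, DDX46 by 0.35 and DHX9 by 0.31 (limma adjusted p between 0.0108 and 0.0240). In DHX9 the clones were at -0.18 and 0.13, neither past the threshold on its own. RBM18, DHX29, DHX40, DDX50 and HNRNPD, with 3 clones each, and SRSF11 made up the rest of the 12. In RBM24 the clones differed in neither component. With 1 array left out, the count of differing member clones lay between 10 (array 4) and 34 (array 1), and it was 13 when array 2 was dropped. The share over all clone differences was not computed for these runs. Past the alternating threshold itself were 7.04% of all clones without array 1, 0.424% without array 2 and 0.518% without array 4. The counts therefore cannot be read as particular to the members. Clones can hybridise to close paralogs such as DDX3X and DDX3Y, HNRNPC and HNRNPCL1 or RBM4 and RBM4B, and their part in these values was not tested.

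**Figure D5:**
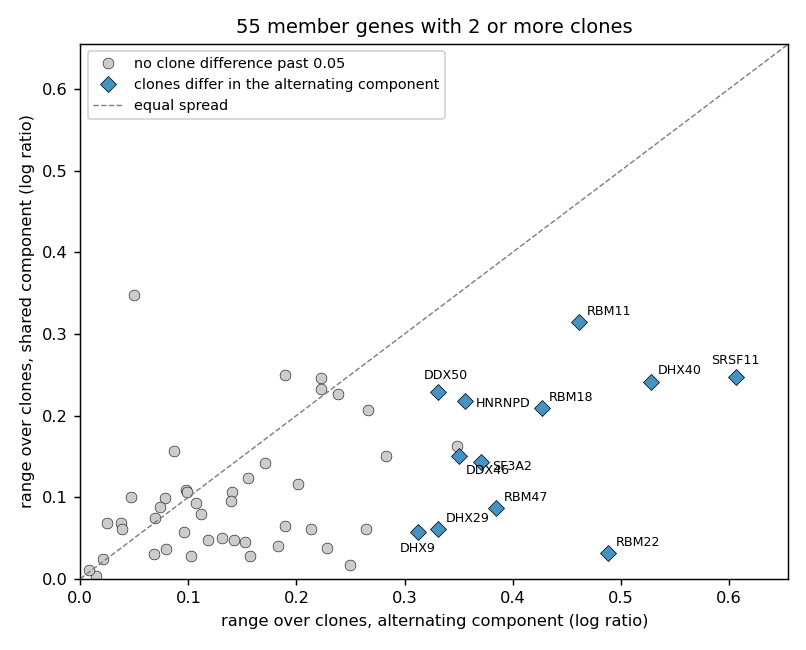
Range over the clones of a gene in the alternating component (x axis) against that in the shared component (y axis), both in log ratio, for the 55 member genes with 2 or more clones; the dashed line marks equal ranges. The 12 genes with a clone difference past an adjusted p of 0.05 in the alternating component (blue) all lie below the line, SRSF11 farthest right. Their place below the line follows in part from that selection.

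Promoters were described for what the members share in sequence, with 250 bases before to 50 after the start of the gene (RefSeq, GRCh38.p14). They were found for 124 of 139 members. Both strands were searched for the ETS-type letters CCGGAAG. The CCAAT box was searched in the same way. So was the TATA box, written TATAAA. The core of an NRF1-type site, TGCGCA, was the last motif, and no motif contains another. CCGGAAG was present in 35.5% of member promoters, 15.2% of 10084 promoters of measured genes and 10.7% of all 27305. It occurred in 7 of 8 U2 factor promoters, 6 of 11 DHX, 12 of 27 DDX and 7 of 17 Sm, LSm and snRNP promoters, but in 3 of 20 hnRNP promoters. CCAAT was present in 45.2% of members and 35.9% of measured genes, and in 13 of 20 hnRNPs and 0 of 8 U2 factors. TATAAA was found in 6.45% of members and 7.79% of measured genes. The NRF1-type core was found in 18.5% of members and 11.5% of measured genes. The median number of CG dinucleotides was 28 in members and 24 in measured genes.

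The promoters of RBM24, PRPF8 and RBM14 are shown as those of the highest, the second highest and the lowest member gene in the shared component, and that of SF3A1 as a U2 factor with the ETS-type letters. Motif matches are in capitals, and ATTGG is CCAAT on the opposite strand. RBM24 lies at chr6:17281814-17282113 (plus strand), PRPF8 at chr17:1684818-1685117 (minus strand), RBM14 at chr11:66616380-66616679 (plus strand) and SF3A1 at chr22:30356845-30357144 (minus strand).
RBM24: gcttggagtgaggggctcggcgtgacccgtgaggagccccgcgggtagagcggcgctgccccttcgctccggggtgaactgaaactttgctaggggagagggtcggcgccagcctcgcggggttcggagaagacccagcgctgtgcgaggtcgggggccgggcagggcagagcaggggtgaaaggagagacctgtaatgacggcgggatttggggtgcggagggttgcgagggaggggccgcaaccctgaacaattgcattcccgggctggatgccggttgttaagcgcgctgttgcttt
PRPF8: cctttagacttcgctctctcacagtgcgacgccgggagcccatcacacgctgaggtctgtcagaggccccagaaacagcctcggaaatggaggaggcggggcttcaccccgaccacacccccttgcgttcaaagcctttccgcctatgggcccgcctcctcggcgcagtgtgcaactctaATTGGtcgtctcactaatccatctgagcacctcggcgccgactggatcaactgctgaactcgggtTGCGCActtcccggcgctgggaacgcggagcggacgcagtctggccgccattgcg
RBM14: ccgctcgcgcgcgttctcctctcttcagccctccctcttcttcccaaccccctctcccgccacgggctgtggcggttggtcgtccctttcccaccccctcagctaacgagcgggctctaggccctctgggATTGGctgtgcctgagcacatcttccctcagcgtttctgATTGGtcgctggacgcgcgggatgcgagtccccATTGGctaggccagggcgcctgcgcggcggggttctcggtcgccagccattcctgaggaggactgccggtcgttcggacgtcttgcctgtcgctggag
SF3A1: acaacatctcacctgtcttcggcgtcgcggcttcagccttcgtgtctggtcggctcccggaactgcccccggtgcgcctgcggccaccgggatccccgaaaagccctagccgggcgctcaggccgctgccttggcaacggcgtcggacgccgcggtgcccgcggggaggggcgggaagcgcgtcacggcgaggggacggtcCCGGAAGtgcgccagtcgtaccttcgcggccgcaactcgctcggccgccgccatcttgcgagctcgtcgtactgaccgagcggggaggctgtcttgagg
The RBM24 window held none of the 4 motifs, that of RBM14 held CCAAT 3 times, and that of PRPF8 held CCAAT and the NRF1-type core 1 time each. DDX41 held CCAAT 2 times and none of the others. The ETS-type letters were in none of the 4 windows of genes past the shared threshold.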

How the data were processed

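RNA was extracted from let-7a-3 and parental A549 cultures and amplified, and each pair was hybridised to 1 two-colour array with a dye swap, per the labels' protocols. Per the series design text, the authors ran ArrayMagic with VSN on their raw scans. The deposited log ratios, of unstated base, were used unchanged. They hold no intensities, so no filter on dim clones was possible. Each clone, each gene (mean of its clones) and each clone minus the mean of the other clones of its gene was fitted across the whole table in limma 3.58.1 (R 4.3.3) with 2 coefficients, leaving 2 residual degrees of freedom, with Benjamini-Hochberg adjustment over all features at a threshold of 0.05, two-sided. Differences in the alternating component between clones were added after values were seen.

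The platform annotation named the clones, and all 139 member gene IDs were found in the GRCh38.p14 gene table with 0 symbols changed. The fits were also run on simulated data with known changes, and how many were recovered is not given here. Named genes are member clones and genes past the threshold, up to 12 clones in the alternating component, the strongest gene per subfamily, the genes with most clones, and 10 genes listed by name; further genes were named after their values were seen. The members and lists were chosen with earlier results of these data known. Alternatives dropped the dye term for the shared component and the shared term for the alternating one. Others used median centring, scaling to 1 median absolute deviation, quantile normalization, robust moderation (statmod 1.5.0), array weights and other thresholds. Clones with 1 symbol, the median of a gene's clones and each array left out were also run. Figures were drawn with matplotlib 3.10.9.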

Additional observations from a re-analysis of the deposited data

Results flagged for a closer look

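Of 52 clones of the named member genes checked for 1 array far from the other 3, the second RBM22 clone was the one found. Array 1 read -0.31 and the others -0.017, 0.004 and 0.026, a gap of 0.870 of the whole range, where chance flags about 1 in 20 groups of 4.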

How the results depend on the processing

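In the shared component 6 member clones and 4 member genes passed. Without the dye term 2 clones (0.867% of all clones) and 2 genes passed, at an adjusted p of 0.1 they were 12 and 8, and at 0.01 they were 2 and 1. Leaving out 1 array gave 2 to 8 clones (1.02% to 3.32% of all clones) and 1 to 11 genes. In the alternating component 16 clones and 6 genes passed. Fitted without the shared term, 0 and 0 passed, where 0.383% of all clones did (59 and 33 at an unadjusted p under 0.05 in limma). At 0.1 the counts were 43 and 21, and at 0.01 they were 0 and 0 (71 and 42 unadjusted). Leaving out 1 array gave 1 to 27 clones (0.424% to 7.04% of all clones) and 0 to 28 genes. Clones that differed from the others of their gene in the shared component were 0, at 0.1 they were 2, and 0 to 9 with 1 array left out. In the alternating component they were 21, and without the shared term 0 (44 unadjusted). At 0.1 they were 35, at 0.01 they were 3, and 10 to 34 with 1 array left out. For the alternatives, whole-table shares were computed only for clones at the 0.05 threshold, not for genes or clone differences. The other counts under the alternatives cannot be set against the array at large. Centring, scaling, quantile normalization, robust moderation, array weights, clones with 1 symbol and the median of a gene's clones kept every count within 1.5 times, and no value of a member clone or gene named as past the threshold, among those recomputed, changed sign. Named values that did not pass were not recomputed under the alternatives. Each log ratio already sets the let-7a-3 and the parental culture of 1 array against each other, so no further pairing was fitted. Leaving out an array leaves 1 residual degree of freedom, so those counts lean on the variance shared between clones. The number of arrays limits the precision, and dim clones cannot be recognised.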
